A study of Homo sapiens with 2 samples.

Results

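MMP1, AXL, LPAR1, CLDN1 and ZYX are 5 genes of matrix breakdown, motility signalling and cell adhesion, described here in UACC62 cells with and without an siRNA against the transcription factor FOSL1. They were taken by symbol, with all their probe sets: 6 of the 53427 probe sets of the array and 5 of its 14884 named genes. They had been picked with their differences already known, so the values below describe them and no test is attached. UACC62 is an established human melanoma line, grown in DMEM with serum. The 2 groups were cells transfected with a non-targeting siRNA (1 array) and cells transfected with FOSL1-specific siRNA (1 array), both harvested after 3 days. The sources used here give neither the number of cultures behind each array nor the sequence of the siRNA or the count of sequences in it. With 1 array per condition there was no replicate error, and every difference describes these arrays, in which fewer transcripts per cell cannot be told apart from a change in the mix of cells.

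FOSL1, also called FRA1, pairs with JUN proteins to form the dimeric factor AP-1. Its typical sites are among the matches to TGANTCA, where N is any base, so not every match is such a site. AP-1 is known for driving genes of invasion, and the collagenase gene MMP1 is its textbook target. Invading melanoma cells cut the surrounding collagen with metalloproteinases, receive motility signals through receptors such as AXL and LPAR1, and pull on the matrix through focal adhesions, where ZYX sits on the ends of actin bundles. CLDN1 belongs to the claudins, which seal epithelial cells to each other and are also found outside junctions in melanoma.

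The values were log2 intensities, and a difference is the value with FOSL1 siRNA minus the value with control siRNA. FOSL1 itself measured 11.90 with control siRNA and 10.38 with FOSL1 siRNA, or -1.53, in the direction that the labels give. The filter on dim genes kept the 7442 genes whose mean over both arrays was at least 8.02, the median of named genes. All 5 members passed it, CLDN1 by 0.0031 and LPAR1 through the brighter of its 2 probe sets. The other LPAR1 probe set had a mean of 7.33, under the filter. Melanocyte markers were present: 13 of 17 passed, among them S100B, SOX10, TYR and MITF, whereas PMEL, TYRP1, OCA2 and GPR143 did not. Of all 14884 named genes 7442 passed. The 13 include CSPG4, PRAME and MCAM, which the planned list of cell type markers did not hold.

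The 4 members with an entry in the RefSeq promoter table (GRCh38.p14) had 10 windows of 250 bases before an annotated start. MMP1 had no entry. The windows of AXL, which has more than 1 annotated start, and of CLDN1 and ZYX, which have 1 each and differed in opposite directions, are printed 5′ to 3′ on the gene's strand. Capitals mark matches to GGGCGG (SP1), GGAATG (TEAD) or CATGTG (an E-box), on either strand.
AXL, chr19:41218973-41219222, plus strand: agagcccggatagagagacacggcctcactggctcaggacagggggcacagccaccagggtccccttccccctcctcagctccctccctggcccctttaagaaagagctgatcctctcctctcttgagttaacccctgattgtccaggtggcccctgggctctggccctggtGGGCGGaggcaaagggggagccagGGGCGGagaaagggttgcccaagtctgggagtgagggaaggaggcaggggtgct
AXL, chr19:41226505-41226754, plus strand: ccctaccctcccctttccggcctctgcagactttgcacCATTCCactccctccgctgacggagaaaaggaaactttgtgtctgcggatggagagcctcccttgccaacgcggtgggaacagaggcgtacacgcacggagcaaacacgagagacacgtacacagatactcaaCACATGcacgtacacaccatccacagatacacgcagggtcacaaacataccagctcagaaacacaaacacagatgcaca
CLDN1, chr3:190322447-190322696, minus strand: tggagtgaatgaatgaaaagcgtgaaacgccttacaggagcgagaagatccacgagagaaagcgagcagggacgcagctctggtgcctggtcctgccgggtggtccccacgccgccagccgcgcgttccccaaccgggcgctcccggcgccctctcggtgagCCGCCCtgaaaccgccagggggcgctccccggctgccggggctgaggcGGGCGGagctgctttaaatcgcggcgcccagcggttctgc
ZYX, chr7:143381095-143381344, plus strand: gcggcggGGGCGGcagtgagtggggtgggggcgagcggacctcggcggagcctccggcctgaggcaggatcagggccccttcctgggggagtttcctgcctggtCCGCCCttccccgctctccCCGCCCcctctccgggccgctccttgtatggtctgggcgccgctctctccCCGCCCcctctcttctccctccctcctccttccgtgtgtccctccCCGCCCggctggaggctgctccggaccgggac

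The letters TGANTCA, with any base at N, were in 0 of the 10 windows, against 6.57% of all 35116 windows of that length in the table. No window of a member held the CRE letters TGACGTCA (1.65% of all windows), the E-box CACGTG (6.34%) or the SRF site called CArG (1.16%). Among the 5996 genes past the filter with a window, the share with TGANTCA in the first one listed was 3.57%. The letters GGGCGG were in 8 of the 10, of which 5 belong to LPAR1, against 42.6% of all windows. In the first listed window of those 5996 genes the share was 69.2%, which counts 1 window per gene, unlike the 10. GGGCGG stood 5 times before ZYX and 2 times each before CLDN1 and the first AXL start. The second AXL window held CATTCC, the reverse complement of GGAATG (11.9% of all windows), and CACATG, that of CATGTG (9.42%). Copies of GGGCGG can overlap each other, as they do in LPAR1, and the motifs printed above share no bases otherwise. These are matches of letters in a short window and say nothing of binding. Of those 5996 genes, the 214 whose first listed window held TGANTCA had a median difference of 0.01, as did the others.

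The members lay on both sides of 0. MMP1 and ZYX were lower with FOSL1 siRNA, and AXL, LPAR1 and CLDN1 were higher. Of the 5, only MMP1 was past 1.5-fold, and of all 7442 genes 1.89% were past it in either direction, 0.766% lower and 1.13% higher. These were 57 lower and 84 higher genes, and 35 and 92 with the trend on gene span, described below, removed. Since the members were chosen from this contrast, nothing is read from that count. As a yardstick of measurement within the arrays, probe sets of the same gene gave differences with an SD of 0.169 over 213 genes with more than 1 bright probe set. It leaves out any variation between cultures.

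**Figure D1:**
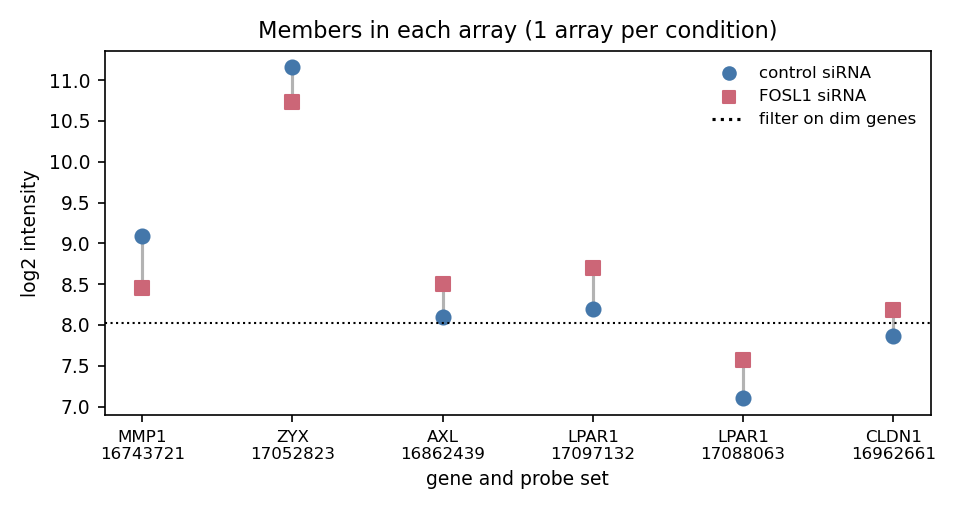
Log2 intensity (vertical axis) of the 6 probe sets of the members (horizontal axis) with control siRNA (circles) and FOSL1 siRNA (squares), 1 array each, with the filter on dim genes at 8.02 as a dotted line. MMP1 and ZYX have the square below the circle, the other probe sets have it above, and the second LPAR1 probe set lies under the filter in both arrays.

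MMP1 is interstitial collagenase, a secreted metalloproteinase that cuts fibrillar collagen. Its probe set 16743721 (Entrez gene 4312) measured 9.09 with control siRNA and 8.46 with FOSL1 siRNA. The difference of -0.64 is a level 1.55-fold lower, and 39 of the 7442 genes (0.524%) had a difference as low or lower. With the span trend removed, the difference was -0.55, 1.47-fold, under the threshold of 1.5-fold.

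ZYX, or zyxin, is a LIM-domain protein that moves to stretched actin filaments and focal adhesions and recruits VASP proteins there. Probe set 17052823 (Entrez gene 7791) measured 11.16 with control siRNA and 10.74 with FOSL1 siRNA. The difference of -0.42 is 1.34-fold lower, and 195 genes (2.62%) were as low or lower.

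AXL is a receptor tyrosine kinase bound by the ligand GAS6 and is known in melanoma as a marker of the invasive, dedifferentiated state. Probe set 16862439 (Entrez gene 558) measured 8.09 with control siRNA, close to the filter, and 8.51 with FOSL1 siRNA. The difference of 0.41 is 1.33-fold higher, and 282 genes (3.79%) were as high or higher.

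LPAR1 is a G protein-coupled receptor for lysophosphatidic acid that signals to the actin cytoskeleton. It was the one member with more than 1 probe set. Probe set 17097132 measured 8.20 with control siRNA and 8.69 with FOSL1 siRNA, or 0.49 more (1.41-fold higher). The dimmer probe set 17088063 measured 7.10 and 7.57, a difference of 0.47 (1.38-fold higher), so both gave the same direction and nearly the same size. By the brighter one, 169 genes (2.27%) were as high or higher.

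CLDN1 had the smallest difference of the 5. Probe set 16962661 (Entrez gene 9076) measured 7.87 with control siRNA, under the filter, and 8.18 with FOSL1 siRNA. The difference of 0.31 is 1.24-fold higher, and 591 genes (7.94%) were as high or higher. CLDN1 is also an epithelial gene, and of 14 named epithelial markers 2 were bright enough for the filter, KRT18 (-0.26) and FLG (-0.23). The other 12 were under it, with differences on both sides of 0, from -0.36 for KRT8 to 0.31 for KRT1, and EPCAM measured 6.18 and 5.90. The summed linear level of all 14, to which the bright KRT18 contributes most, differed by -0.19 on the log2 scale, and the part of such cells in the CLDN1 value was not tested.

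**Figure D2:**
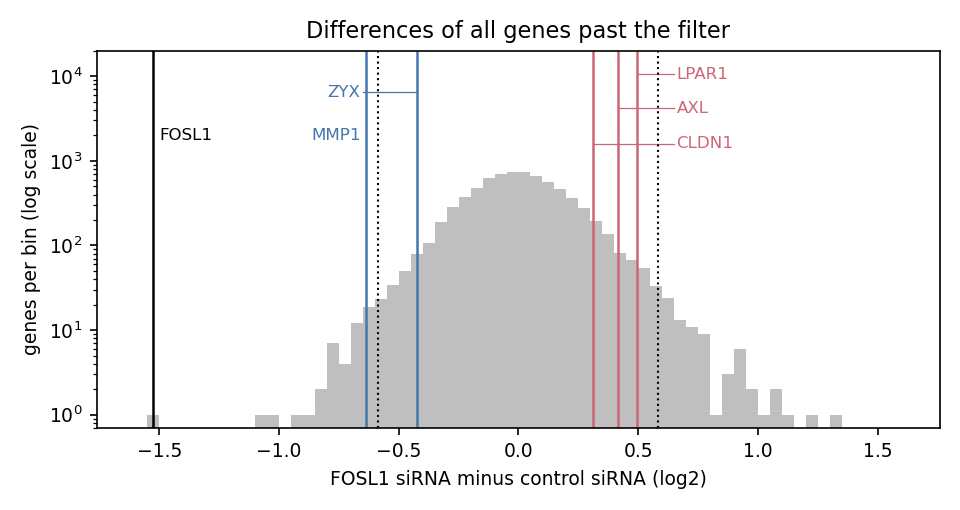
Number of genes (vertical axis, log scale) by difference in log2 intensity, FOSL1 siRNA minus control siRNA (horizontal axis), for the 7442 genes past the filter, with the 1.5-fold threshold as dotted lines. FOSL1 lies at -1.53, MMP1 just past the lower threshold at -0.64, and ZYX, CLDN1, AXL and LPAR1 between the thresholds.

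The genes that work with each member are given next, from lists written with earlier results of these arrays known. Over all genes past the filter the median difference was -0.00 and 50.1% were below 0. Each list is described by its counts and its median, and nothing in them is a test.

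Metalloproteinases and their inhibitors mostly lay slightly below 0. Of 25 named genes 13 were past the filter, with a median of -0.12, and 11 of these were below 0. MMP1 was the only one past 1.5-fold. MMP17, a metalloproteinase anchored to the membrane, followed at -0.28 and MMP24 at -0.27, and MMP8, the neutrophil collagenase, at -0.17. MMP14, the membrane enzyme that activates other metalloproteinases, was at 0.03 (11.30 with control siRNA and 11.33 with FOSL1 siRNA). The inhibitors TIMP3, TIMP2 and TIMP1 were at -0.25, -0.12 and -0.12. RECK, a membrane-anchored inhibitor, had the highest difference at 0.33. With the trend on gene span removed, 10 of the 13 were below 0 and the median was -0.11.

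MMP1 stands in a cluster of metalloproteinase genes on chromosome 11, of which 7 have a named probe set. Besides MMP1 only MMP8 passed the filter. MMP10 measured 4.83 and 4.71 with control and FOSL1 siRNA, MMP12 5.67 and 5.64, and MMP13 4.93 and 4.89. MMP20 and MMP27 were also dim, so no level is read from these 5 genes.

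Other matrix proteases showed no common direction. Of 13 that passed, 7 were below 0 and 6 above, with a median of -0.01 that was 0.00079 with the span trend removed. The cathepsin CTSK, a collagen-cutting lysosomal protease, was at 0.42 and ADAM12 at 0.40, whereas CTSL was at -0.29 and ADAM15 at -0.27.

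**Figure D3:**
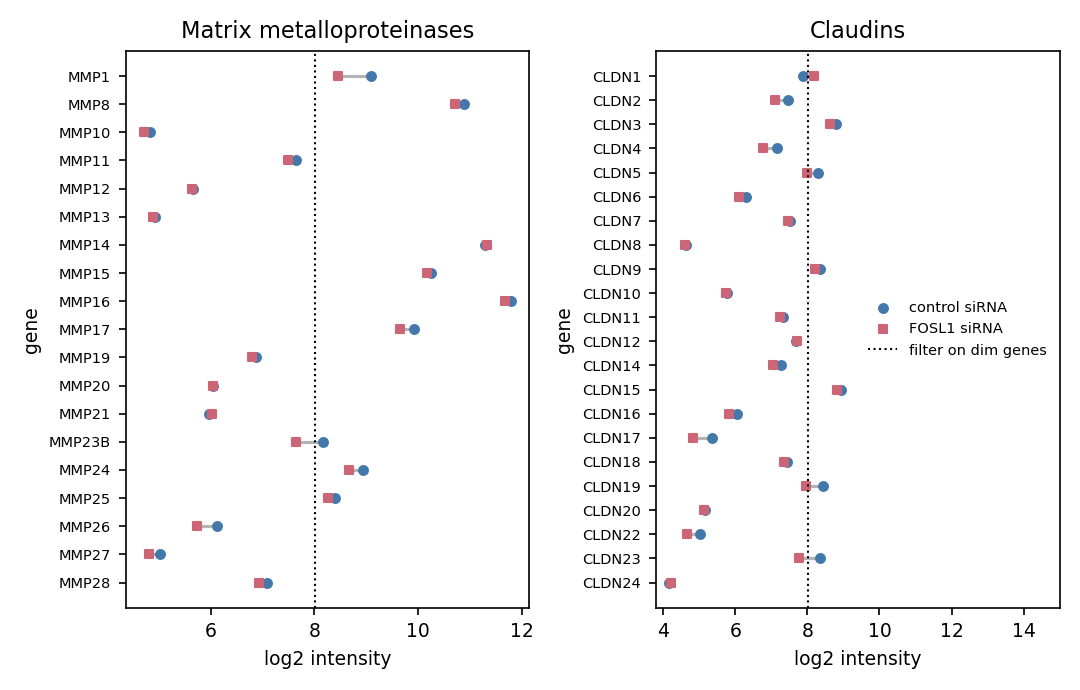
Log2 intensity (horizontal axis) of each named matrix metalloproteinase (left) and claudin (right) with control siRNA (circles) and FOSL1 siRNA (squares), 1 array each, with the filter on dim genes as a dotted line. MMP1 has the longest connecting line among metalloproteinases, to the left, and CLDN1 is the claudin with a clear line to the right, whereas CLDN23 and CLDN19 have lines to the left.

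The TAM receptors, the family of AXL, were all higher with FOSL1 siRNA. TYRO3 measured 9.56 in the control array and 9.81 in the other (0.25 higher). MERTK measured 7.74 and 8.18, a difference of 0.45, but its mean lay under the filter. Of the ligands, GAS6 was at -0.12 and PROS1 at 0.16, on opposite sides of 0. Both differences were smaller in size than the SD of 0.169 between probe sets of a gene, so no direction is read from them.

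Across the receptor kinases of melanoma with their ligands, 18 passed, 11 were above 0, the median was 0.08 and none was past 1.5-fold. The median was -0.02 with no filter on dim genes. The ephrin receptors EPHA2 and EPHA3 led with 0.49 and 0.45, next to ROR1 at 0.37 and EGFR at 0.34. FGFR4 (-0.32) and EPHB4 (-0.19) were lowest. MET, the receptor of hepatocyte growth factor, was at -0.06.

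Among the receptors of lysophosphatidic acid, LPAR4 had a larger difference than LPAR1. Its level was 8.87 in the control array and 9.40 after FOSL1 siRNA, which is 0.54 more. LPAR6 (0.56) and LPAR3 (-0.30) were under the filter. The enzyme ENPP2, or autotaxin, which makes the ligand, measured 10.81 and 10.75, a difference of -0.07, and the phosphatases that break it down lay between -0.27 for PLPP2 and 0.09 for PLPP1.

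In the whole list of lysophosphatidic acid and sphingosine phosphate genes, 16 passed, 10 were below 0 and the median was -0.05. S1PR4, a sphingosine phosphate receptor, was lowest at -0.58, and SPHK1, the kinase that makes its ligand, was at -0.36. None was past 1.5-fold, but with the span trend removed LPAR4 was, at 0.60.

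Of the other claudins, 6 passed the filter, all with differences below 0, also with the span trend removed. Which claudins enter this contrast partly rests on the filter. CLDN1 passed through its value with FOSL1 siRNA, and CLDN23, CLDN19 and CLDN5 through theirs in the control array. With no filter, 19 of the 22 named claudins were below 0 and 3 above, CLDN1 among the latter. The 6 were all among the 1861 genes with the shortest span, whose median difference was -0.11. CLDN23 was at -0.59, just at the threshold of 1.5-fold, and at -0.49 with the span trend removed. CLDN19 was at -0.49 and CLDN5 at -0.29, while CLDN3, CLDN9 and CLDN15 lay between -0.18 and -0.10. These genes were dim, and 15 of the 22 named claudins did not pass.

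Tight junction genes as a whole had 17 past the filter, 8 above 0 and 9 below, with a median of -0.04. With a filter at the 75th percentile of brightness their median was 0.10. The scaffold TJP1, or ZO-1, was at 0.26 (10.38 and 10.64), on the side of CLDN1, and the polarity protein PARD6A was at -0.40. PARD6A, at 8.32 with control siRNA and 7.92 with FOSL1 siRNA, passed the filter through its value in the control array. OCLN, or occludin, measured 5.84 and 6.04, under the filter.

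In the zyxin family of LIM proteins, 6 of 7 named genes passed. LPP was at -0.33 and FBLIM1 at -0.52, the latter under the filter. LPP, at 8.25 with control siRNA and 7.92 with FOSL1 siRNA, passed through its value in the control array. TRIP6, which is bright, measured 11.73 with control siRNA and 11.69 with FOSL1 siRNA, and LIMD1 was at -0.00. AJUBA was on the other side at 0.16. WTIP was at -0.04. The family members thus differed in size and, for AJUBA, in direction from ZYX. Of the 5 besides ZYX that passed, 4 were below 0 and 1 above. With the trend on gene span removed, 3 were below 0 and 2 above.

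Of the wider list of LIM and focal adhesion proteins, 29 passed, 19 below 0 and 10 above, with a median of -0.04 and none past 1.5-fold. LPXN, or leupaxin, measured 11.87 and 11.34, a difference of -0.53, and PDLIM7 9.29 and 8.76, also -0.53. FHL2 was at -0.37 and VASP, the partner that zyxin brings to actin, at -0.30, and both were named after their values were seen. KANK2 was highest at 0.36 and PDLIM5 was at 0.30. Vinculin (VCL) was at 0.15 and talin 1 (TLN1) at -0.07. No integrin had a named probe set in the table used here.

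**Figure D4:**
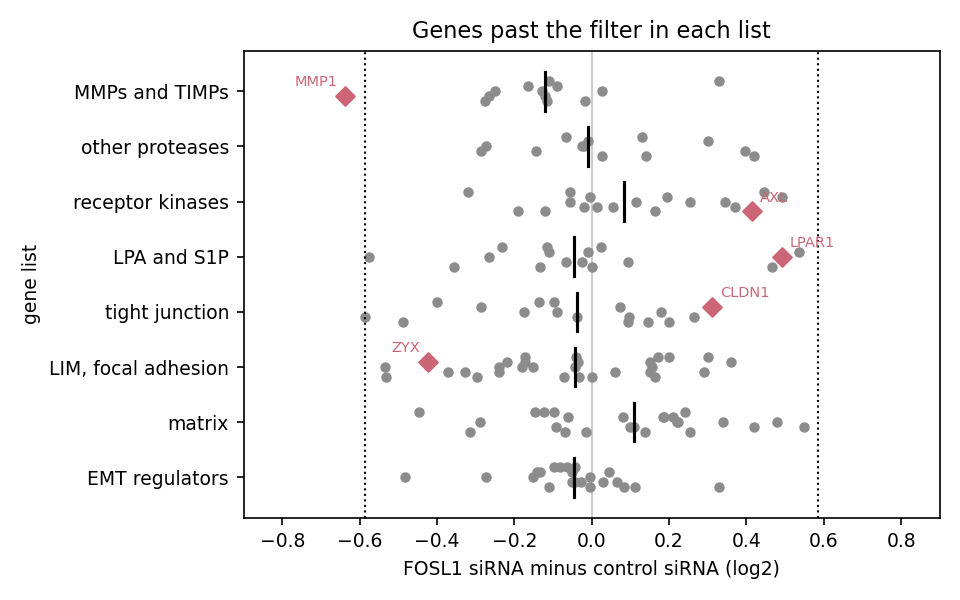
Difference in log2 intensity, FOSL1 siRNA minus control siRNA (horizontal axis), of each gene past the filter in 8 gene lists (vertical axis), with list medians as black bars, members as diamonds and the 1.5-fold threshold as dotted lines. MMP1 lies left of the lower threshold, the list medians lie between -0.12 and 0.11, and the other members lie toward the ends of their lists.

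Matrix proteins and matrix receptors had 25 genes past the filter, 15 above 0 and 10 below, with a median of 0.11. Biglycan (BGN) was at 0.55 and lumican (LUM) at 0.48, both small leucine-rich proteoglycans of the matrix. None was past 1.5-fold, but with the span trend removed BGN was, at 0.60. HAS2, which makes hyaluronan, was at 0.42 and fibronectin (FN1) at 0.25. The syndecan SDC4, which works with integrins in focal adhesions, was at -0.45, and SPP1, or osteopontin, at -0.32. LUM is also in the list of stromal and leukocyte markers, of which 3 of 9 passed: LUM, KDR (0.19) and CD68 (-0.63, 1.55-fold lower, and -0.54 with the span trend removed).

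Regulators of the invasive state differed little. Of 22 that passed, 16 were below 0, and the median was -0.05. JUN, the dimer partner of FOSL1, was at -0.48 and SNAI1 at -0.27. RUNX2 was highest at 0.33, followed by ZEB1 at 0.11, while SNAI2 was at 0.05 and the coactivators of TEAD factors YAP1 and WWTR1 were at -0.10 and -0.14. MITF, whose level is known to run opposite to AXL across melanomas, was at 0.36 (8.73 and 9.09), the same direction as AXL here. PAX3 was at 0.34, and MLPH and S100A1 were at -0.41 and -0.40. MLPH, at 8.33 with control siRNA and 7.92 with FOSL1 siRNA, passed the filter through its value in the control array. The median of the 13 melanocyte markers was -0.08, and 0.01 with the span trend removed.

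The differences moved with gene span, the distance from start to end of a gene in RefSeq. Over the 7442 genes, Pearson's r of the difference with log10 span was 0.328 and Spearman's rank correlation 0.345, where all genes share the same arrays. The median difference was -0.11 in the 1861 genes with the shortest span (up to 10.1 kb) and 0.08 in the 1861 with the longest. MMP1 and ZYX, which were lower, were among the shortest, with spans of 8.24 and 9.77 kb. LPAR1 was among the longest at 165.7 kb, and AXL at 42.5 kb and CLDN1 at 16.7 kb lay between. The trend taken out was fitted over all 14884 named genes, dim ones included. After its removal the 7442 genes had a median difference of 0.01, with 3943 above 0 and 3499 below. With the trend removed, the differences were -0.55 for MMP1, -0.35 for ZYX, 0.40 for AXL, 0.44 for LPAR1 and 0.35 for CLDN1. All 5 thus kept their direction, and 4 of them became smaller while CLDN1 became larger. What lies behind the trend was not tested.

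**Figure D5:**
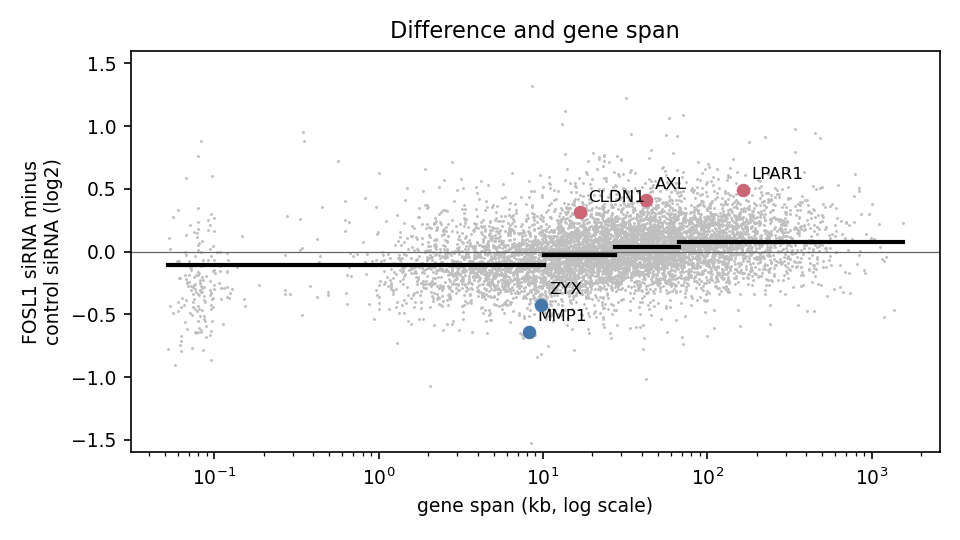
Difference in log2 intensity, FOSL1 siRNA minus control siRNA (vertical axis), by gene span in kb (horizontal axis, log scale) for the 7442 genes past the filter, cut by span into 4 sets of equal size whose medians are black bars. The medians run from -0.11 in the shortest set to 0.08 in the longest, and the members lie further from 0 than the medians of their sets, in the same direction except for CLDN1.

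The genes with the values closest to each member over the 2 arrays were found by Euclidean distance between their log2 values, which is a likeness over 2 points only. For MMP1 these were MIR596 (distance 0.0446) and HOXC13 (0.0778), and for ZYX they were E2F7 (0.0510) and SHKBP1 (0.0640). RCOR3 (0.0263) and PSMA3-AS1 (0.0285) were closest to AXL, and TMEM178B (0.0207) and ZNF615 (0.0305) to LPAR1. CLDN1 was closest to POLN (0.0068) and SLC25A21-AS1 (0.0289).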

How the data were processed

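The authors deposited 1 value per probe set for 2 arrays, taken here as log2 intensities from their range (2.23 to 14.81), since log base, background correction and probe summary are not given in the sources used here. Per the labels' protocols, 100 ng of total RNA was amplified with a whole-transcript kit, labelled with biotin and hybridised. Sorted values of the arrays differed by at most 0.0301, so a shift in total RNA per cell would not show.

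The array's gene table named 16098 of 53427 probe sets, giving 14884 genes, all matched to RefSeq (GRCh38.p14) by Entrez ID. The probe set with the highest mean stood for a gene. Members and gene lists were chosen with earlier results of these data known. Named genes were the members, FOSL1, relatives in small families and genes past 1.5-fold in a list. They also took in the 2 highest and 2 lowest of each list past the filter. PMEL, TYRP1, OCA2 and GPR143 were named as under the filter, and CSPG4, PRAME and MCAM as outside the planned markers. The 2 genes closest in value to each member and some of its genomic neighbours were named too. Others were chosen after their values were seen (FHL2, VASP, MET, ROR1, EGFR, ENPP2, PLPP1, PLPP2, PARD6A, OCLN, VCL, TLN1, HAS2, FN1, SNAI2, YAP1, WWTR1, SOX10, TYR, S100B, EPCAM, KRT8, KRT1). No test was run with 1 array per condition. Trends were removed by loess (fraction 0.3; statsmodels 0.14.6, Python 3.11.15). The simulated data used to check the code held known shifts of single genes but no such trend. Whether loess removes a trend was therefore not tested. A gene list is not reported here.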

Additional observations from a re-analysis of the deposited data

How the results depend on the processing

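The alternatives were fixed with earlier results of these data known. Over 5 alternatives each (centring, quantile normalization, loess trends on mean value and on gene span, mean of probe sets), the members kept their direction: MMP1 lay between -0.64 and -0.55, ZYX between -0.43 and -0.35, AXL between 0.40 and 0.43, LPAR1 between 0.44 and 0.50 and CLDN1 between 0.31 and 0.35. The mean of probe sets can alter only LPAR1. Past 1.5-fold there were 84 higher and 57 lower genes, but 284 and 213 with no filter and 15 and 23 under a filter at the 75th percentile, as more or fewer genes entered, 6 and 3 past 2-fold, and 92 and 35 with the span trend removed (cause not tested). The sign changed in 7 of 84 list medians under alternatives. That of the stromal and leukocyte markers was 0.19 and, with no filter, -0.23. The receptor kinases ran from -0.02 to 0.19 and the matrix genes from 0.03 to 0.19. No paired analysis was possible because each condition has 1 array. CLDN1 and AXL lie near the filter on dim genes.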

Other observations

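The genes near each member in RefSeq order, among those with a named probe set, were looked at up to 2 places away. AXL lies between SNRPA (-0.16) and HNRNPUL1 (0.09), both bright. The second named gene before AXL, ACTMAP, was at -0.24 and the second after it, CCDC97, at -0.04. GSTK1, the second before ZYX, was bright and at -0.01. The second named gene after LPAR1, PTGR1, an enzyme that inactivates leukotriene B4 and prostaglandins, measured 8.14 in the control array and 8.56 in the other, 0.43 more, while TXN, the second before it, was at 0.05. IL1RAP, a co-receptor of interleukin 1 and the second named gene after CLDN1, measured 10.83 and 11.18, a difference of 0.35, and P3H2, a collagen prolyl hydroxylase and the second before it, was at 0.10. The genes directly beside MMP1, LPAR1, CLDN1 and ZYX were all under the filter, so their differences are not read. Whether neighbours vary together was not tested.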
